A study of Mus musculus with 3 samples.

Results

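The 30 genes described here encode the proteins that bind, activate, import and oxidise fatty acids in mitochondria, together with the regulators Ppara and Ppargc1a. They were taken by name from a list whose rule uses no measured value, but the list was chosen with earlier results of these data known. Of the 30, 30 were found among the 32285 genes of the count matrices. The heart burns mostly fatty acids. Long-chain fatty acids are joined to coenzyme A, carried into mitochondria as carnitine esters and shortened there in repeated cycles of enzyme steps. The electrons released at the first step of each cycle enter the respiratory chain through flavoproteins. Malonyl-CoA holds back the carnitine step, and AMP-activated protein kinase, AMPK, relieves that hold by inhibiting the enzyme that makes malonyl-CoA.

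Single-cell RNA sequencing was done on hearts of Myh6-R404Q mice, Prkag2-p.R299Q mice and WT mice, with 1 library per genotype and 3 libraries in all. Myh6 encodes the alpha-myosin heavy chain of the adult mouse heart muscle, and Prkag2 encodes a regulatory gamma subunit of AMPK. Both lines carry a point mutation, which counts of transcripts do not show. All mice were male C57/B6J, and the cells were sampled as total cells after collagenase digestion and a 70 µm strainer, with no gate given for a cell type. The sources used here do not give age, zygosity or how many animals went into a library. With 1 library per genotype there is no estimate of the spread between animals, so no test between genotypes was made, and every interval below is a 95% interval that covers counting error only.

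The libraries held 12662 barcodes with 38251499 unique molecular identifiers (UMIs) for Myh6-R404Q, 7951 with 31385005 for Prkag2-p.R299Q and 18033 with 41047991 for WT. The matrix labelled Myh6-R404Q also holds the barcodes of both other matrices, under the barcode suffixes 1 (Prkag2-p.R299Q) and 2 (WT), with 0 entries that differ. The 12662 barcodes with suffix 3 were taken as the Myh6-R404Q library by elimination. Between libraries, 28 to 51 barcode sequences were shared. After filters, 10498 cells of Myh6-R404Q, 6839 of Prkag2-p.R299Q and 14851 of WT were clustered without the 30 genes. The median depth of these cells also differed, at 1850, 2347 and 1416 UMIs in that order.

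Cardiomyocyte-like cells numbered 1293 in Myh6-R404Q (12.3% of cells), 1123 in Prkag2-p.R299Q (16.4%) and 2125 in WT (14.3%). All 10 of their fixed markers were detected, led by Ttn at 20182, 22157 and 24279.6 CPM (UMIs scaled to 1000000 in the class) in the same order of libraries. Next came Myh6 at 12359.6, 14252 and 12850.0 CPM and Ryr2 at 8811, 11368 and 14452 CPM, with Ryr2 above Myh6 in WT. They fell into 2 clusters, a deep one with median depths of 6068, 8118 and 4576 UMIs per cell and a shallow one with 1134, 1107.5 and 1035.5 UMIs. The shallow cluster held 21.0%, 21.5% and 23.9% of the cardiomyocyte-like cells but 5.34%, 4.07% and 7.08% of their UMIs, so values for the whole class mainly follow the deep cluster. Markers of other cell types were present in the class as well. The 10 endothelial markers summed to 1858 CPM in Myh6-R404Q, 1368 CPM in Prkag2-p.R299Q and 1679 CPM in WT, and the 10 fibroblast markers to 492, 341 and 379 CPM. The endothelial markers include Cd36 and Fabp4, which are also on the list of fatty acid uptake genes used below. Their sum is therefore not a measure of endothelial RNA alone. The 9 mesothelial markers summed to 77.8 CPM (71.6 to 84.4) in Myh6-R404Q, 38.5 CPM in Prkag2-p.R299Q and 34.9 CPM in WT, and none of them was at 0. Mesothelial-like cells were also more frequent in Myh6-R404Q, at 13% of cells, against 8.52% in Prkag2-p.R299Q and 5.35% in WT. The 6 erythroid markers, of which 2 were at 0, summed to 141, 151 and 56.7 CPM. The part of these other cell types in the results was not tested.

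Promoter sequence was at hand for 25 of the 30 genes from RefSeq, build GRCm38.p6, as windows from 250 bases before to 50 bases after a gene's start. The windows of Hadha and Hadhb are shown because these genes encode both subunits of a single enzyme complex, lie head to head on chromosome 5 and were both higher in Myh6-R404Q. Hadha occupies chr5:30118304-30155162 on the minus strand and Hadhb chr5:30155248-30184593 on the plus strand in mm10. Their windows overlap by 228 bases, printed in capitals, so the same stretch appears once on each strand, and RefSeq places the start sites 273 bases apart.
Hadha, chr5:30154931-30155230, minus strand: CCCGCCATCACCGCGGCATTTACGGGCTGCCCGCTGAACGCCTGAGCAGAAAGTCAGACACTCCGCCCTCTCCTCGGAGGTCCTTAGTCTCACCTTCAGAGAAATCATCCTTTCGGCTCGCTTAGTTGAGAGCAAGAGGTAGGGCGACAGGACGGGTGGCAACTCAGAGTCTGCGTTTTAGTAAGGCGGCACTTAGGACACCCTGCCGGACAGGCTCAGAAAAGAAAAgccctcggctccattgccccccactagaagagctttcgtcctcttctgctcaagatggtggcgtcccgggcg
Hadhb, chr5:30155003-30155302, plus strand: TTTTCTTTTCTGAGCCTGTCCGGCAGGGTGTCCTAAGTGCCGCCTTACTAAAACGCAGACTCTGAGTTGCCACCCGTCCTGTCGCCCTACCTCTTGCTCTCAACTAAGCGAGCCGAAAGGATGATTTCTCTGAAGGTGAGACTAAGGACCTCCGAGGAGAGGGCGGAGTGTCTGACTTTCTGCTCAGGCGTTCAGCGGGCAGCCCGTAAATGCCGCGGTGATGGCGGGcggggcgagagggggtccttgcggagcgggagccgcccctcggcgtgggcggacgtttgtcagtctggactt
Acadm, on chromosome 3, is shown because its window was the only one of these 25 genes with the letters AAGGTCA, the shared core of sites for nuclear receptors of the estrogen-related group, which are known to act on oxidation genes. The match, in capitals, lies on the opposite strand as TGACCTT.
Acadm, chr3:153944594-153944893, minus strand: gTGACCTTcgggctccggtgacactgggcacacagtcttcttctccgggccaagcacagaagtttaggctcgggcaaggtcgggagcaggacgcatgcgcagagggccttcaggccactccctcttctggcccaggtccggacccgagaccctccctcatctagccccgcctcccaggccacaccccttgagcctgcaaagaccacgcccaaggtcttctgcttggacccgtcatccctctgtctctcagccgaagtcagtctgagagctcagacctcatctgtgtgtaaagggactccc
Searched on both strands, AAGGTCA was present in 4.72% of 32851 windows of all genes. The longer form with TC before these letters was in 0.423% of windows, and the direct repeat of AGGTCA with a single base between, bound by Ppara with its partner receptor, in 0.0396%, and neither was in a window of the 25 genes. The second form contains all of the first and the third a part of it. These matches describe letters in the windows only.

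In cardiomyocyte-like cells of Myh6-R404Q, 28 of the 30 genes were higher than in WT, and the 2 that were lower were the regulators Ppara and Ppargc1a. The interval of the ratio lay above 1 for 25 genes and below 1 for those 2, where it did so for 31.8% and 16.4% of the genes tested. In all, 11 genes exceeded WT by 1.5-fold or more (Fabp3, Cpt1a, Cpt2, Mlycd, Acadm, Acads, Hadha, Hadhb, Acaa2, Ech1 and Etfdh) and 0 lay below it by as much, where 9.57% of the 9163 genes that reached 10 CPM in one of the libraries were 1.5 times higher and 3.37% lower. Summed over all 30 genes, UMIs made up 6283 CPM in Myh6-R404Q, 5343 CPM in Prkag2-p.R299Q and 5128 CPM in WT, a log2 ratio of 0.29 (0.27 to 0.31) for Myh6-R404Q over WT. The median log2 ratio of the 30 genes, with 1 CPM added to each level, was 0.46, against 0.09 for all genes tested.

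Prkag2-p.R299Q differed less from WT over the same genes in the class as a whole, though not in its shallow cluster. There 20 genes were at least 1.5 times higher, where 26.1% of 10650 tested genes were, and the median log2 ratio was 1.10. The 12 muscle-only genes described below had a median of 1.01 in the same comparison. In the class as a whole, 18 of the 30 genes were higher and 12 lower than in WT. The interval lay above 1 for 11 genes (16.1% of all genes tested) and below 1 for 2 (25.0%). In the whole class 0 of the 30 genes passed 1.5-fold in either direction, where 3.22% of 8852 genes were 1.5 times higher and 3.89% lower. The median log2 ratio was 0.07, with the genes' lower bounds at a median of -0.07 and their upper bounds at 0.17, against -0.05 for all genes tested. The summed log2 ratio was 0.06 (0.04 to 0.08). With each cell thinned to 1000 UMIs, which gives the shallow cluster more weight, the median was 0.2998 and the summed log2 ratio 0.2316.

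**Figure D1:**
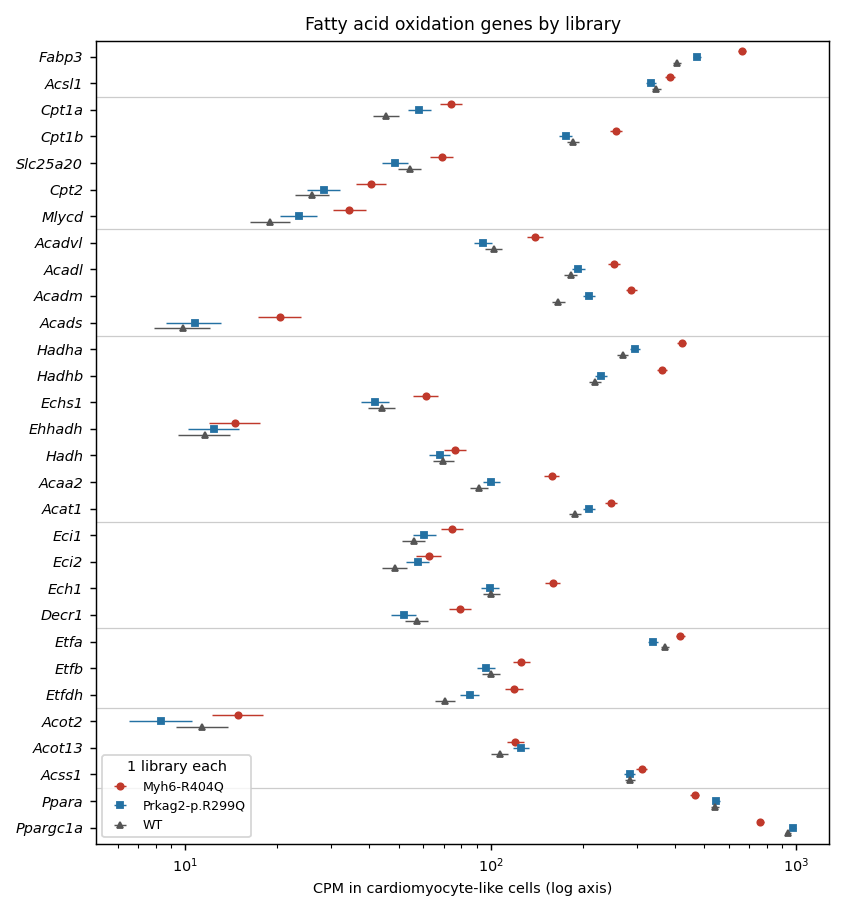
Level of each of the 30 genes in cardiomyocyte-like cells, in CPM on a log axis, with 1 point per library and a 95% Poisson interval. Grey lines separate the roles. The Myh6-R404Q circle stands rightmost for 27 of the 30 genes and leftmost for Ppara and Ppargc1a.

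Fabp3, which carries fatty acids through the cytosol of heart muscle, was at 663 CPM in Myh6-R404Q, 474 CPM in Prkag2-p.R299Q and 406 CPM in WT. Its ratio to WT was 1.63 (1.56 to 1.70) for Myh6-R404Q and 1.17 (1.12 to 1.22) for Prkag2-p.R299Q. All 3 libraries were thus in distinct ranges, with Prkag2-p.R299Q between the others. Acsl1 joins long-chain fatty acids to coenzyme A, and it varied less, with 387 CPM in Myh6-R404Q, 334 CPM in Prkag2-p.R299Q and 348 CPM in WT. Here the ratio was 1.11 (1.06 to 1.17) for Myh6-R404Q and 0.958 (0.911 to 1.01) for Prkag2-p.R299Q.

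The carnitine shuttle begins with carnitine palmitoyltransferase 1, for which Cpt1b encodes the muscle form and Cpt1a the form of liver and many other tissues. Cpt1b (chr15:89416405-89425863, minus strand) had 257 CPM in Myh6-R404Q, 176 CPM in Prkag2-p.R299Q and 186 CPM in WT, and its ratio to WT was 1.38 (1.29 to 1.48) for Myh6-R404Q and 0.947 (0.883 to 1.01) for Prkag2-p.R299Q. Cpt1a (chr19:3322334-3385733, plus strand) had 74.0 CPM in Myh6-R404Q, 58.3 CPM in Prkag2-p.R299Q and 45.5 CPM in WT, with ratios of 1.63 (1.43 to 1.85) and 1.28 (1.12 to 1.46). Both forms were thus highest in Myh6-R404Q, and of the pair Cpt1a was also above WT in Prkag2-p.R299Q beyond counting error. Cpt1a was at its highest in mesothelial-like cells, whose markers were also highest in the Myh6-R404Q library of this class, and the part of that was not tested. Cpt1a made up 22.4% (20.8 to 24.1) of the UMIs of both forms for Myh6-R404Q, 24.9% (23.1 to 26.8) for Prkag2-p.R299Q and 19.7% (18.0 to 21.4) for WT.

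Cpt2, which releases the acyl group again on the inner side of the membrane, was at 40.7 CPM in Myh6-R404Q, 28.4 CPM in Prkag2-p.R299Q and 26.0 CPM in WT. That is 1.57 (1.32 to 1.86) times WT in Myh6-R404Q and 1.10 (0.914 to 1.31) times WT in Prkag2-p.R299Q. Mlycd breaks down malonyl-CoA and so lifts the brake on the shuttle, and it had 34.5 CPM in Myh6-R404Q, 23.5 CPM in Prkag2-p.R299Q and 18.9 CPM in WT. Its ratio was 1.82 (1.5 to 2.22) for Myh6-R404Q and 1.24 (1.01 to 1.53) for Prkag2-p.R299Q. Slc25a20, the carrier that exchanges acylcarnitine for carnitine, is among the 6 genes given by range below.

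Chain-length specific acyl-CoA dehydrogenases catalyse the first step of each cycle. Acadm, for medium chains, had 288 CPM in Myh6-R404Q, 209 CPM in Prkag2-p.R299Q and 166 CPM in WT, which is 1.74 (1.62 to 1.85) times WT in Myh6-R404Q and 1.26 (1.18 to 1.35) times WT in Prkag2-p.R299Q. Acads, for short chains, was at 20.4 CPM in Myh6-R404Q, 10.7 CPM in Prkag2-p.R299Q and 9.84 CPM in WT. It had the highest Myh6-R404Q ratio of all of them, 2.07 (1.59 to 2.72), with a wide interval from 151 and 91 UMIs, whereas the Prkag2-p.R299Q ratio was 1.09 (0.808 to 1.47). Acads was below 10 CPM in WT, so it entered each comparison with WT through the mutant library only.

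The dehydrogenases for longer chains differed less. Acadl stood at 253 CPM in Myh6-R404Q, 193 CPM in Prkag2-p.R299Q and 183 CPM in WT, which is 1.39 (1.30 to 1.48) times WT for Myh6-R404Q and 1.06 (0.989 to 1.13) for Prkag2-p.R299Q. Acadvl, which is bound to the inner membrane, had 139.7 CPM in Myh6-R404Q, 94.5 CPM in Prkag2-p.R299Q and 102 CPM in WT, with ratios of 1.37 (1.25 to 1.5) and 0.925 (0.842 to 1.02). In order of decreasing Myh6-R404Q ratio the 4 enzymes thus ran from short to medium chains and then to Acadl and Acadvl, but the intervals of Acads and Acadm overlapped, as did those of Acadl and Acadvl.

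The trifunctional protein carries out the remaining steps for long chains, with Hadha and Hadhb as its subunits and the overlapping promoter windows printed above. Hadha had 421 CPM in Myh6-R404Q, 297 CPM in Prkag2-p.R299Q and 270.2 CPM in WT, and Hadhb had 363 CPM in Myh6-R404Q, 229.8 CPM in Prkag2-p.R299Q and 219.8 CPM in WT. Both subunits were higher in Myh6-R404Q, by 1.56 (1.48 to 1.64) times for Hadha and 1.65 (1.56 to 1.75) times for Hadhb. In Prkag2-p.R299Q the ratios were 1.10 (1.04 to 1.16) and 1.05 (0.983 to 1.11).

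Acaa2, the thiolase that splits off acetyl-CoA from medium and shorter chains, had 158 CPM in Myh6-R404Q, 100.4 CPM in Prkag2-p.R299Q and 91.3 CPM in WT. Its level was 1.73 (1.58 to 1.90) times WT in Myh6-R404Q and 1.10 (1.0 to 1.21) times WT in Prkag2-p.R299Q. Like Cpt1a it was at its highest in mesothelial-like cells, and the part of their RNA in this ratio was not tested. Acat1, a thiolase of ketone body and isoleucine breakdown, had 248 CPM in Myh6-R404Q, 209.6 CPM in Prkag2-p.R299Q and 189 CPM in WT, with ratios of 1.32 (1.23 to 1.41) and 1.11 (1.04 to 1.19).

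Unsaturated fatty acids need extra enzymes before the cycle can go on. Ech1, a dienoyl-CoA isomerase, had 159 CPM in Myh6-R404Q, 99.3 CPM in Prkag2-p.R299Q and 100.4 CPM in WT, and Decr1, the 2,4-dienoyl-CoA reductase, had 79.2 CPM in Myh6-R404Q, 51.9 CPM in Prkag2-p.R299Q and 57.1 CPM in WT. The Myh6-R404Q ratios were 1.59 (1.46 to 1.73) for Ech1 and 1.39 (1.23 to 1.56) for Decr1. For Prkag2-p.R299Q they were 0.989 (0.901 to 1.09) and 0.909 (0.80 to 1.03), both with intervals that held 1.

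Electrons from the acyl-CoA dehydrogenases pass to the flavoprotein made of Etfa and Etfb and from there through Etfdh into the respiratory chain. Etfdh had 119 CPM in Myh6-R404Q, 85.4 CPM in Prkag2-p.R299Q and 70.8 CPM in WT, which is 1.68 (1.52 to 1.86) times WT in Myh6-R404Q and 1.21 (1.08 to 1.34) times WT in Prkag2-p.R299Q. The flavoprotein subunits differed less. Etfa had 417 CPM in Myh6-R404Q, 339.7 CPM in Prkag2-p.R299Q and 372 CPM in WT, with ratios of 1.12 (1.07 to 1.18) and 0.914 (0.870 to 0.960), and was 1 of 2 genes whose Prkag2-p.R299Q interval lay below 1. Etfb had 126 CPM in Myh6-R404Q, 96.5 CPM in Prkag2-p.R299Q and 100.2 CPM in WT, with 1.26 (1.15 to 1.38) for Myh6-R404Q and 0.963 (0.877 to 1.06) for Prkag2-p.R299Q.

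Acot2 and Acot13 are thioesterases, which free fatty acids from coenzyme A. Acot2, at 14.9 CPM in Myh6-R404Q, 8.35 CPM in Prkag2-p.R299Q and 11.4 CPM in WT, was the other gene below WT in Prkag2-p.R299Q, with a ratio of 0.735 (0.539 to 0.9995) from 74 and 105 UMIs, and its Myh6-R404Q ratio was 1.31 (0.992 to 1.73). Acot13 had 120.4 CPM in Myh6-R404Q, 125 CPM in Prkag2-p.R299Q and 107 CPM in WT, with ratios of 1.13 (1.03 to 1.23) for Myh6-R404Q and 1.17 (1.08 to 1.28) for Prkag2-p.R299Q. Acss1, which activates acetate inside mitochondria, varied little, with 312 CPM in Myh6-R404Q, 284 CPM in Prkag2-p.R299Q and 285 CPM in WT and ratios of 1.09 (1.03 to 1.16) and 0.997 (0.944 to 1.05).

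Ppara, the nuclear receptor that turns on most of the enzymes above, and Ppargc1a, a coactivator of it and of mitochondrial biogenesis, differed in the other direction. Ppara had 465 CPM in Myh6-R404Q, 548 CPM in Prkag2-p.R299Q and 541 CPM in WT, and Ppargc1a had 763 CPM in Myh6-R404Q, 977 CPM in Prkag2-p.R299Q and 937 CPM in WT. Their Myh6-R404Q ratios were 0.859 (0.823 to 0.898) and 0.814 (0.787 to 0.842), below 1, while the Prkag2-p.R299Q ratios were 1.01 (0.973 to 1.05) and 1.04 (1.01 to 1.07). These are also the genes with the longest genomic spans of the 30, at 67.8 and 113 kb.

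The 6 other genes had less than 100 CPM in each library and did not pass 1.5-fold in any comparison. They are Slc25a20, Hadh, the last dehydrogenase of the cycle for shorter chains, Echs1, the hydratase for shorter chains, the isomerases Eci1 and Eci2, and Ehhadh, a bifunctional enzyme of peroxisomes. Their Myh6-R404Q ratios ran from 1.09 for Hadh to 1.40 for Echs1, and their Prkag2-p.R299Q ratios from 0.896 for Slc25a20 to 1.19 for Eci2. Ehhadh had 14.6 CPM in Myh6-R404Q, 12.4 CPM in Prkag2-p.R299Q and 11.6 CPM in WT.

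**Figure D2:**
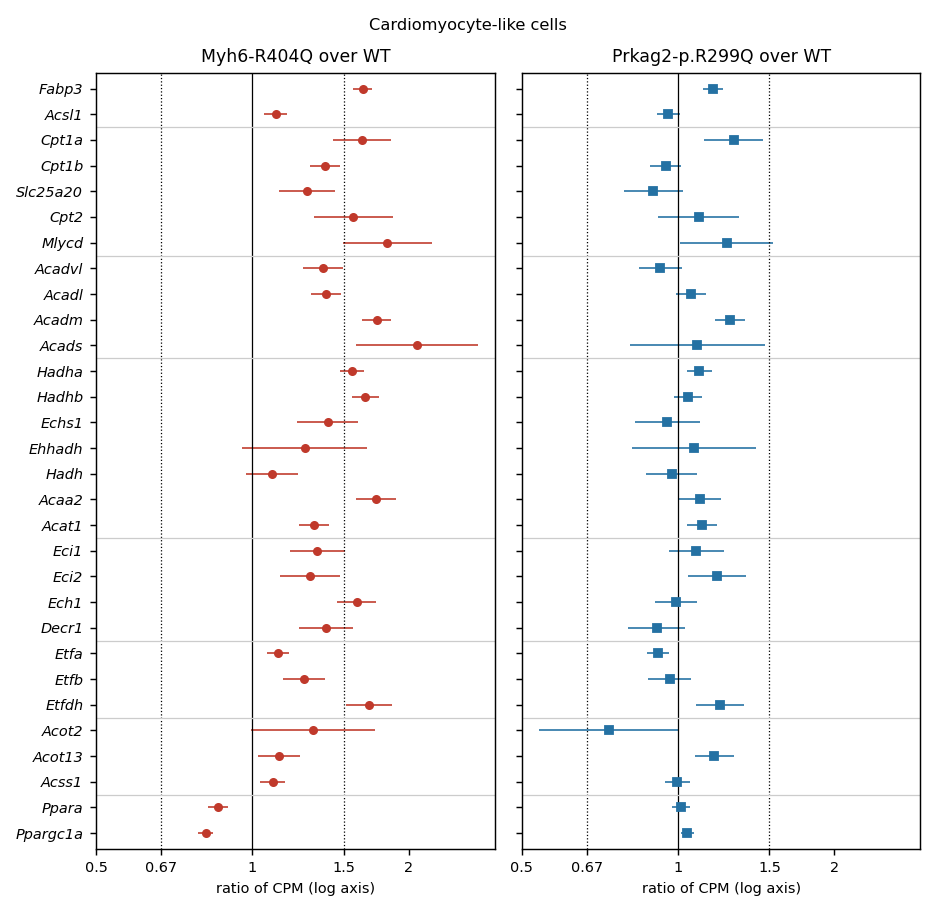
Ratio of CPM in Myh6-R404Q over WT (left) and in Prkag2-p.R299Q over WT (right) for each of the 30 genes in cardiomyocyte-like cells, on a log axis, with 95% counting intervals. The solid line marks a ratio of 1 and the dotted lines 1.5-fold. On the left 11 genes lie beyond the upper dotted line, and on the right 0 lie beyond either line.

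The mutant libraries were also compared with each other, which uses the same values again. In Prkag2-p.R299Q, 27 of the 30 genes were lower than in Myh6-R404Q and 3 were higher. Acads, Hadhb, Acaa2, Ech1, Decr1 and Acot2, 6 in all, lay 1.5-fold or more below Myh6-R404Q and 0 as far above it, where 7.37% of 9090 genes were lower and 1.60% higher by that much. Acot2 was below 10 CPM in Prkag2-p.R299Q, so it entered this comparison through Myh6-R404Q only. The median log2 ratio was -0.47 for the 30 genes and -0.13 for all genes tested. The ratio was 0.525 (0.402 to 0.684) for Acads and 0.633 (0.597 to 0.671) for Hadhb. Ppara, at 1.18 (1.13 to 1.23), and Ppargc1a, at 1.28 (1.24 to 1.32), were higher in Prkag2-p.R299Q, as was Acot13, at 1.04 (0.954 to 1.14), though the interval of Acot13 held 1.

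Other genes of fat and energy metabolism were read from 7 further lists. Of 33 other genes of mitochondrial oxidation and carnitine metabolism, 28 had at least 10 CPM in Myh6-R404Q or WT, and 6 were at least 1.5 times higher in Myh6-R404Q and 0 lower, with a median log2 ratio of 0.31. Of all genes tested, 9.57% were higher and 3.37% lower by that much. Acsf2, an acyl-CoA synthetase, had 19.6 CPM in Myh6-R404Q and 6.71 CPM in WT. Hsd17b10, a dehydrogenase that also acts on short branched acyl groups, had 13 CPM in Myh6-R404Q and 5.84 CPM in WT, and Etfbkmt, which methylates the Etfb protein, 70.7 and 37.7 CPM. Acsf2 and Hsd17b10 were below 10 CPM in WT, so they entered this comparison through Myh6-R404Q only. The list of 29 nuclear genes of the respiratory chain had a median of 0.33, with 28 of 29 higher and 2 past 1.5-fold, beside 9.57% of all genes tested. The 2 genes were Cox5b, at 76.2 CPM in Myh6-R404Q and 43.8 CPM in WT, and Ndufb9, at 162 and 98.1 CPM.

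Lists further from the oxidation cycle lay nearer the median of all genes in Myh6-R404Q over WT. The counts past 1.5-fold stand beside 9.57% of all genes tested that were higher and 3.37% that were lower by that much. Peroxisomal oxidation had 15 genes tested, a median log2 ratio of 0.15, and 1 gene past 1.5-fold, Hacl1. Fatty acid uptake and lipid stores had 16 tested and a median of 0.10, with 3 past 1.5-fold, the lipase Lipe (45.4 CPM in Myh6-R404Q, 23.7 CPM in WT), Dgat2 of triglyceride synthesis (110.0 and 65.5 CPM) and the carrier Fabp5 (30.4 and 17.5 CPM). Glucose use had 20 tested and a median of 0.09, with Gapdh past 1.5-fold. Ketone body use had 5 tested and a median of -0.04, and its only gene past 1.5-fold was Bdh1, lower at 23.4 CPM in Myh6-R404Q and 38.7 CPM in WT.

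Among 20 tested genes that control oxidation, the median log2 ratio of Myh6-R404Q over WT was -0.04. In this list 2 genes were at least 1.5 times higher and 1 lower, where 9.57% and 3.37% of all genes tested were. Ucp3, an inner membrane protein of muscle mitochondria whose gene responds to fatty acids, had 69.2 CPM in Myh6-R404Q, 27.1 CPM in Prkag2-p.R299Q and 22.3 CPM in WT. Pdk4, the kinase that shuts off pyruvate dehydrogenase and so spares glucose, had 103 CPM in Myh6-R404Q, 16.8 CPM in Prkag2-p.R299Q and 37.5 CPM in WT. Its mutant libraries lay on opposite sides of WT, at ratios of 2.74 (2.41 to 3.12) for Myh6-R404Q and 0.448 (0.367 to 0.544) for Prkag2-p.R299Q. Lpin1, a phosphatase of lipid synthesis that also acts with Ppargc1a and Ppara, had 199 CPM in Myh6-R404Q, 301 CPM in Prkag2-p.R299Q and 327 CPM in WT.

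In Prkag2-p.R299Q over WT these lists had few genes past 1.5-fold, where 3.22% of all genes tested were higher and 3.89% lower by that much. Of the 27 other mitochondrial genes tested, Echdc1 was higher, at 75.9 CPM in Prkag2-p.R299Q and 49.3 CPM in WT. So were Acsf2, at 12.4 and 6.71 CPM, and Acad9, at 10.3 and 6.71 CPM. Acsf2 and Acad9 were below 10 CPM in WT, so they entered this comparison through Prkag2-p.R299Q only. The monocarboxylate carrier Slc16a7 of the ketone body list was also higher. Lower, besides Pdk4, were Bdh1 at 20.2 CPM in Prkag2-p.R299Q and 38.7 CPM in WT, Fabp4 at 139 and 210 CPM, and Gpihbp1 at 5.08 and 11.2 CPM. Gpihbp1 reached 10 CPM in WT only. Fabp4 and Gpihbp1 are genes of capillary endothelium. The 10 endothelial markers, with Fabp4 itself among them, summed to 1368 CPM in Prkag2-p.R299Q and 1679 CPM in WT in these cells, and the part of that was not tested. Among the lists of metabolism genes, which do not include the endothelial markers, the lowest median log2 ratio was -0.22. The median was 0.12 for the respiratory chain and between -0.10 and 0.03 for the 5 others.

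The ratios varied with the genomic span of the genes. Over all genes tested in Myh6-R404Q over WT, the median log2 ratio was 0.23 in the group with the shortest spans of 10 equal groups, up to 6.63 kb, and 0.01 in the group with the longest, from 158 kb. With each gene set against the median of its own span group, 28 of the 30 genes were still above it, 7 of them by at least 1.5-fold, where 5.56% of all genes with a span were, and the median difference was 0.30. For Prkag2-p.R299Q over WT the same median difference was 0.12. Within the 30 genes, Pearson's r between log2 span and log2 ratio was -0.49 (Spearman's rho -0.44) for Myh6-R404Q over WT and 0.21 (rho 0.11) for Prkag2-p.R299Q over WT, given as a description across genes of the same libraries. Of 12 muscle-only genes, which are not on the oxidation lists, 6 were above and 6 below WT in Myh6-R404Q, from 0.610 for Ryr2 to 1.69 for Myl2, with a median log2 ratio of 0.03. The part of span in the oxidation genes' ratios was not tested beyond these values.

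**Figure D3:**
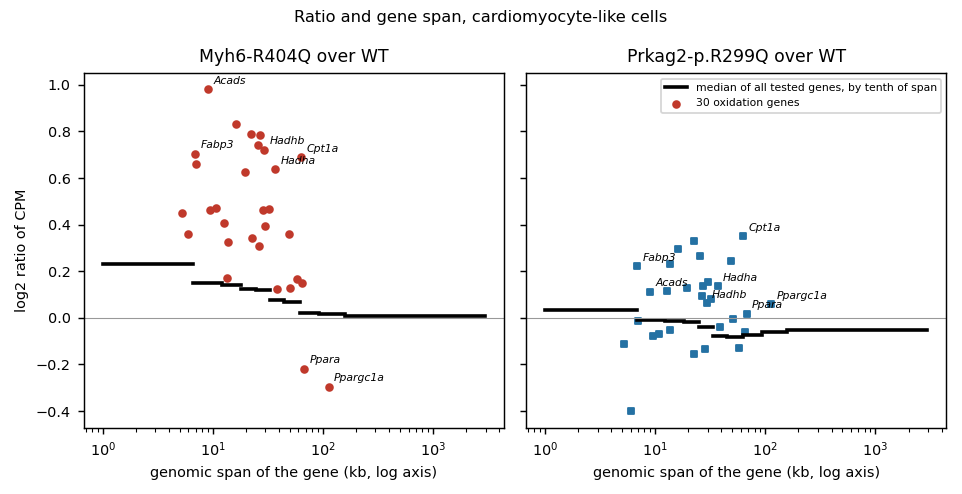
Log2 ratio of CPM against the genomic span of each gene in kb, on a log axis, for Myh6-R404Q over WT (left) and Prkag2-p.R299Q over WT (right) in cardiomyocyte-like cells. Points are the 30 genes, and black bars are medians of all tested genes in 10 equal groups of span. On the left 28 points lie above the bar of their own group and Ppara and Ppargc1a below it.

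Other genes that can move with the state of the cells differed between these libraries as well. Of the heat shock list 8 genes were tested, and their median log2 ratio was -0.43 in Myh6-R404Q over WT and -0.50 in Prkag2-p.R299Q over WT, with Hsph1 at 16.3 CPM in Myh6-R404Q, 22.5 CPM in Prkag2-p.R299Q and 44.3 CPM in WT. Of the clock list, whose members cycle over the day, 14 genes were tested, with medians of 0.21 and 0.25. Malat1, a nuclear RNA, had 60092 CPM in Myh6-R404Q, 82561 CPM in Prkag2-p.R299Q and 59391 CPM in WT. Nppa, a gene of atrial and stressed muscle, had 24.2, 127 and 23.6 CPM in the same order. The part of these differences in the oxidation genes' values was not tested.

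Within the cardiomyocyte-like class, the shallow cluster held more oxidation transcripts by CPM than the deep one in all 3 libraries. The 30 genes summed to 13969.8 CPM in the shallow and 5849 CPM in the deep cluster of Myh6-R404Q, 13716 and 4988 CPM in Prkag2-p.R299Q, and 7225 and 4968 CPM in WT. The ratio was 2.39 (2.32 to 2.46), 2.75 (2.67 to 2.83) and 1.45 (1.41 to 1.5), so the contrast was wider in both mutant libraries. At least 1.5 times higher in the shallow cluster were 22 genes for Myh6-R404Q, 23 for Prkag2-p.R299Q and 15 for WT, where 33.7%, 38.8% and 29.1% of all tested genes were. At least 1.5 times lower were 2, 5 and 0 of the 30, where 27.4%, 31.5% and 8.87% of all tested genes were.

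Fabp3 and many of the enzymes were higher in the shallow cluster. Fabp3 had 2919 against 536 CPM in Myh6-R404Q, 3112 against 362 CPM in Prkag2-p.R299Q and 1226 against 344 CPM in WT, shallow against deep. For Acadvl the values were 642 against 111 CPM in Myh6-R404Q, 688 against 69.3 CPM in Prkag2-p.R299Q and 214 against 93.6 CPM in WT. For Etfb they were 639.9 against 96.9 CPM in Myh6-R404Q, 632 against 73.8 CPM in Prkag2-p.R299Q and 293 against 85.4 CPM in WT. In each of these genes the shallow cluster was above the deep one in every library, and the gap was widest in Prkag2-p.R299Q. Across libraries, 15 genes were at least 1.5 times higher in the shallow cluster in all 3, where 18.4% of 9010 genes were. Some genes did not share the pattern. For Slc25a20 the shallow over deep ratio was 0.683 (0.408 to 1.08) for Myh6-R404Q, 1.15 for Prkag2-p.R299Q and 0.894 for WT. Etfdh had 0.690 (0.472 to 0.976), 1.28 and 1.16, with an interval below 1 in Myh6-R404Q, and Ehhadh 0.860, 0.437 and 0.780, each with an interval that held 1. Acss1 had 304 against 313 CPM in Myh6-R404Q, 155 against 290.0 CPM in Prkag2-p.R299Q and 290.4 against 285 CPM in WT, which is lower in the shallow cluster of Prkag2-p.R299Q while the interval of that ratio held 1 in the other libraries.

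The regulators went the other way between the clusters. Ppara had 225 against 479 CPM in Myh6-R404Q, 141 against 565 CPM in Prkag2-p.R299Q and 414 against 551 CPM in WT, and Ppargc1a had 445 against 781 CPM in Myh6-R404Q, 280.1 against 1007 CPM in Prkag2-p.R299Q and 676 against 957 CPM in WT, again shallow against deep. Both were lower in the shallow cluster in every library, and lowest of all in Prkag2-p.R299Q. Cpt1a differed from Cpt1b here, with shallow over deep ratios of 0.883 (0.571 to 1.31), 0.560 (0.288 to 0.987) and 0.971 (0.642 to 1.42) in Myh6-R404Q, Prkag2-p.R299Q and WT, against 1.71, 2.60 and 1.43 for Cpt1b.

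The shallow cluster differed in other ways that move with these values. Its mitochondrially encoded share had a median of 5.09%, 5.07% and 4.0% of UMIs in Myh6-R404Q, Prkag2-p.R299Q and WT, against 0.894%, 0.716% and 1.0% in the deep cluster. Nuclear RNAs were lower, with Malat1 at 30079 against 61786 CPM in Myh6-R404Q, 25492 against 84982 CPM in Prkag2-p.R299Q and 42069 against 60710.4 CPM in WT. Of the 12 muscle-only genes, 10 were above the deep cluster for Myh6-R404Q, 11 for Prkag2-p.R299Q and 10 for WT. Mb had the highest ratios, 7.92, 11 and 4.02, and Ryr2 the lowest, 0.590, 0.614 and 0.738. Their part in the contrast was not tested.

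**Figure D4:**
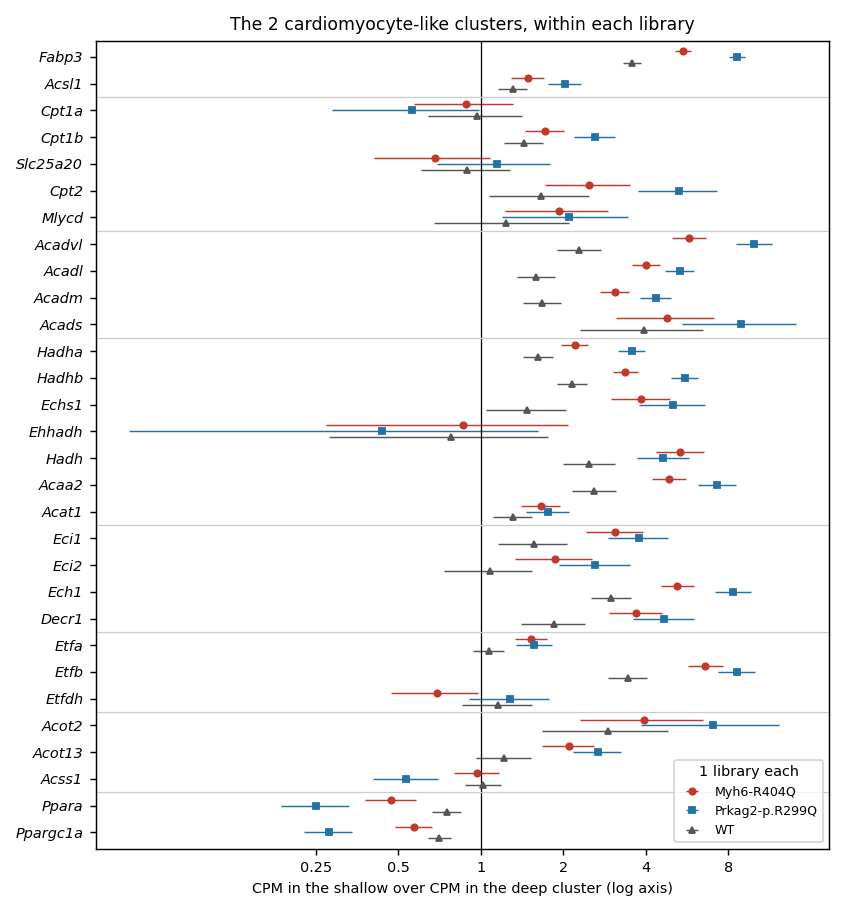
CPM in the shallow over CPM in the deep cardiomyocyte-like cluster for each of the 30 genes, on a log axis, with 1 point per library and 95% counting intervals. The line marks a ratio of 1. Fabp3, Acadvl and Etfb lie right of it in all 3 libraries and Ppara and Ppargc1a left of it.

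Taken alone, the clusters gave different values between genotypes. In the deep cluster the median log2 ratio of the 30 genes was 0.34 for Myh6-R404Q over WT, with 10 genes at least 1.5 times higher and 0 lower, where 9.98% and 3.32% of all tested genes were. For Prkag2-p.R299Q over WT it was -0.03 over the 29 genes that reached 10 CPM, with 0 past 1.5-fold, where 3.30% of tested genes were higher and 3.72% lower. In the shallow cluster it was 1.08 for Myh6-R404Q over WT and 1.10 for Prkag2-p.R299Q over WT, against -0.01 and -0.13 for all genes tested. Here 22 genes (Myh6-R404Q) and 20 genes (Prkag2-p.R299Q) were at least 1.5 times higher than WT, where 25.6% and 26.1% of tested genes were, and 2 and 3 were lower, where 23.5% and 31.6% were. In Prkag2-p.R299Q over WT, 9 genes lay on opposite sides of 1 in the clusters with intervals that excluded 1 in both, where 5.06% of tested genes did. Acadl had 878 CPM in Myh6-R404Q, 874 CPM in Prkag2-p.R299Q and 280 CPM in WT in the shallow cluster, from 347, 315 and 183 UMIs. In the same cluster the 12 muscle-only genes had median log2 ratios of 0.75 for Myh6-R404Q over WT and 1.01 for Prkag2-p.R299Q over WT. Of these 12 genes, 8 (Myh6-R404Q) and 9 (Prkag2-p.R299Q) were at least 1.5 times higher than WT, among them Mb at 4826 and 4707 CPM against 1911 CPM in WT. Ryr2 was lower by as much, at 5312 CPM in Myh6-R404Q, 7087 CPM in Prkag2-p.R299Q and 10863 CPM in WT, and Tnnt2 had ratios of 1.21 and 0.971. Nppa also differed between the shallow clusters, at 258 CPM in Myh6-R404Q, 1537 CPM in Prkag2-p.R299Q and 76.4 CPM in WT. The part of these genes, or of unlike cells in the shallow clusters, in the oxidation genes' values was not tested.

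Oxidation transcripts were also counted per cell at equal depth. With each cell thinned to 1000 UMIs, the median cell of the deep cluster held 6 UMIs of the 30 genes for Myh6-R404Q, 5 for Prkag2-p.R299Q and 5 for WT. In the shallow cluster the medians were 13, 14 and 6 UMIs, over the 153, 133 and 268 cells that reached that depth, while 118, 109 and 240 shallower cells were left out.

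The other cell classes were read against free muscle RNA, which can enter droplets that hold other cells. For this a list of 12 muscle-only genes was set beside the 30 genes, as the ratio of the level in a class to that in cardiomyocyte-like cells of the same library. The median muscle-only ratio ran from 0.155 in mesothelial-like cells of Prkag2-p.R299Q to 0.595 in endothelial-like cells of WT, and single genes from 0.0208 for Ryr2 to 2.45 for Mb. Muscle RNA in cells that should lack it was thus present in all 7 other classes and uneven between genes. Members were screened for a level of at least 10 CPM and a ratio of at least 3 times the muscle-only median in all 3 libraries. Mb, itself a muscle-only gene, met this in all 7 classes, so meeting it does not show that the cells expressed a gene. Between 0 of the 30 genes in endothelial-like cells and 9 in mesothelial-like cells met it, and these counts were not read further.

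Cpt1b, Slc25a20, Acsl1, Etfa, Etfdh, Acot13, Ehhadh, Ppara, Ppargc1a, Acat1 and Acss1, 11 of the 30, were highest in cardiomyocyte-like cells in all 3 libraries. Fabp3, Cpt2, Acadl, Acadvl, Acads, Hadh, Ech1, Etfb and Acot2 were highest in endothelial-like cells in all 3. Mb was also higher there, at 1.86, 1.94 and 2.45 times the cardiomyocyte-like level in Myh6-R404Q, Prkag2-p.R299Q and WT. The part of free muscle RNA in these levels, and of endothelial RNA in the cardiomyocyte-like values, was not tested. In each other class and library, the gene with the lowest level relative to cardiomyocyte-like cells was Ppara or Ppargc1a. In mesothelial-like cells Ppargc1a had 13.1 CPM in Myh6-R404Q, 19.7 CPM in Prkag2-p.R299Q and 36.6 CPM in WT, which is 0.0172, 0.0202 and 0.0390 of the cardiomyocyte-like level. Those shares lie below the median muscle-only ratio of the same cells and near that of Ryr2.

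Cpt1a and Acaa2 in mesothelial-like cells were the only cases of a gene and class in which the lower bound of the ratio lay above the highest muscle-only ratio, that of Mb, in all 3 libraries. Cpt1a had 121 CPM there in Myh6-R404Q, 118 CPM in Prkag2-p.R299Q and 112 CPM in WT, 1.63 (1.44 to 1.85), 2.03 (1.73 to 2.38) and 2.45 (2.05 to 2.93) times the cardiomyocyte-like level. Acaa2 had 332 CPM there in Myh6-R404Q, 224 CPM in Prkag2-p.R299Q and 153 CPM in WT.

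The balance of the carnitine palmitoyltransferase forms, which needs no scaling, differed between classes. Cpt1a made up 86.1% (82.9 to 88.9) of the UMIs of both forms in mesothelial-like cells of Myh6-R404Q, 86.0% (81.3 to 90) in those of Prkag2-p.R299Q and 78.3% (72.4 to 83.4) in those of WT. Fibroblast-like cells had 69.4%, 75.2% and 54.6% and macrophage-like cells 67.9%, 66.9% and 47.3% in the same order of libraries. Endothelial-like cells, at 34.8%, 38.2% and 30.9%, and pericyte-like cells, at 34.1%, 43.9% and 30.1%, were nearer to the cardiomyocyte-like values above. In all 3 libraries mesothelial-like cells had the highest share of the 8 classes and cardiomyocyte-like cells the lowest, though in Prkag2-p.R299Q the interval of endocardial-like cells, 65.7 to 89.8, reached the mesothelial-like value. The share was lowest in WT in each class but lymphatic endothelial-like cells, and the median muscle-only ratio was highest in WT in each of the other classes but pericyte-like cells. The part of free Cpt1b RNA in these shares was not tested.

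**Figure D5:**
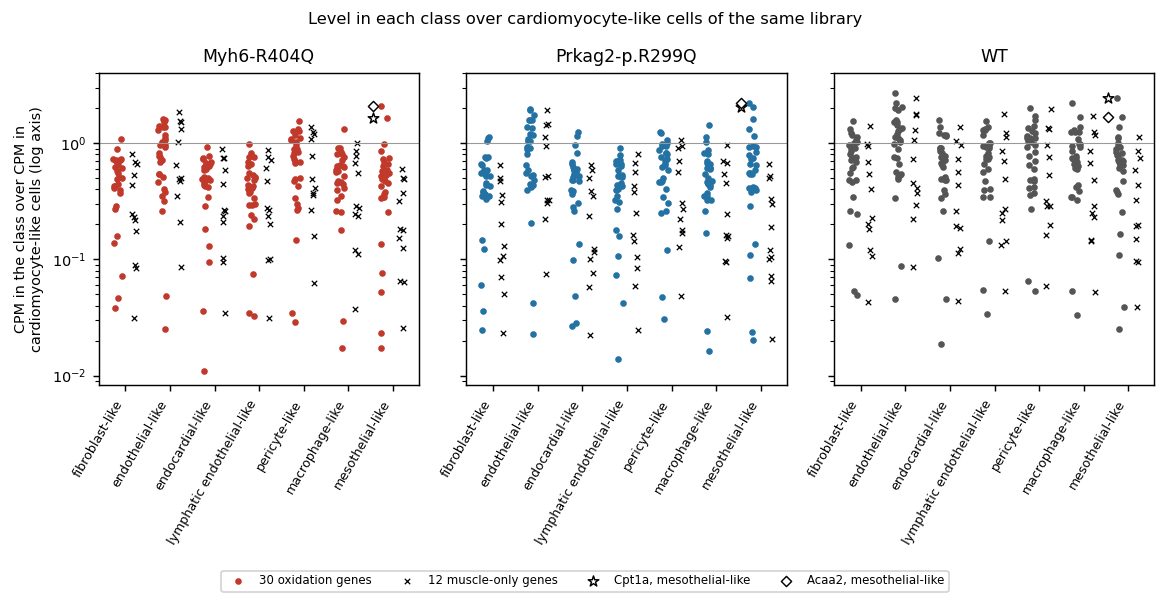
Level in each of 7 other classes over the level in cardiomyocyte-like cells of the same library, on a log axis, for the 30 oxidation genes (coloured points) and 12 muscle-only genes (crosses). The open star and diamond mark Cpt1a and Acaa2 in mesothelial-like cells, which lie above every cross of that class in all 3 libraries.

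In each of the other classes, the medians of the oxidation genes and of the muscle-only genes were both lower in Prkag2-p.R299Q than in WT, by unlike amounts. In fibroblast-like cells 29 of the 30 genes had at least 10 CPM, and 15 of them were at least 1.5 times lower in Prkag2-p.R299Q than in WT, where 6.06% of all tested genes were. Their median log2 ratio was -0.59, and that of the 12 muscle-only genes, of which 11 were lower by that much, was -0.91. By the same measure 17 of 29 genes were lower in endocardial-like cells (15.4% of all tested genes), 20 of 29 in lymphatic endothelial-like cells (15.3%) and 12 of 29 in macrophage-like cells (11.7%). The medians there were -0.65, -0.80 and -0.52, against -0.82, -0.90 and -0.72 for the muscle-only genes. Pericyte-like cells had 11 of 30 genes lower (12.7%), with medians of -0.43 and -0.47. Fewer were lower in endothelial-like cells, 6 of 29 (5.97%), with medians of -0.23 and -0.18, and in mesothelial-like cells, 5 of 29 (6.74%), with medians of -0.18 and -0.62. In Myh6-R404Q over WT the fibroblast-like medians were -0.04 for the oxidation genes and -0.23 for the muscle-only genes. In these classes, a lower content of free muscle RNA and lower expression of the genes by the cells cannot be told apart.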

How the data were processed

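Libraries of mouse heart cells, 3 in all with 1 per genotype, were counted with Cell Ranger 7.0.1 against mm10, as the submitters' processing notes say. Values were deposited as raw UMI counts per gene and barcode, whole numbers with no normalization, per the file headers and the values themselves. Whether intronic reads were counted, and which annotation was used, is not given here. The members and all lists were chosen with earlier results of these data known.

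Barcodes were kept from 500 UMIs and 300 genes upward, and up to a mitochondrial share of 20%. Scrublet removed 2163 (17.1%), 1112 (14.0%) and 3182 (17.6%) barcodes of Myh6-R404Q, Prkag2-p.R299Q and WT as doublets, above the loading-based expectation of 10.1%, 6.36% and 14.4%. Cells were clustered in scanpy 1.11.5 with leidenalg 0.10.2 at a resolution of 0.8, on 2000 variable genes and 30 components, without the members, the related lists and mitochondrially encoded genes, and with no integration. The 22 clusters were named from 18 marker lists, and the 8 classes that reached 100 cells per library entered the comparisons. Rebuilt names may differ from those of the study.

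UMIs were summed per class and library, and CPM (UMIs scaled to 1000000 per sum) computed from the deposited counts. Intervals are exact Poisson, Clopper-Pearson or conditional binomial 95% intervals (scipy 1.17.1). Log2 ratios use 1 CPM as pseudocount, which understates low genes. A gene was tested for size at 10 CPM in either library and called at 1.5-fold. With 1 library per genotype no p-value was computed. Members were given in full when they reached 100 CPM in any library, or when they were called with an interval that excluded 1 in any comparison, and otherwise by range. From the related lists, up to 4 called genes per list and comparison with the largest ratios were named. The symbol Mut was not matched. Genomic spans come from GENCODE on mm10. The size rule was run on simulated counts with planted changes, which hold counting error only. Those counts have no spread between animals or preparations, so they cannot show how the rule behaves between such libraries.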

Additional observations from a re-analysis of the deposited data

Results flagged for a closer look

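In Prkag2-p.R299Q over WT, 9 of the 30 genes lay on opposite sides of 1 in the shallow and the deep cardiomyocyte-like cluster, with intervals that excluded 1 in both, where 5.06% of the 8377 genes tested in both clusters did. The difference between the clusters was not tested, and the intervals cover counting error only. For Acadvl the ratio was 3.21 in the shallow and 0.740 in the deep cluster. Echs1 had 2.88 in the shallow and 0.847 in the deep cluster, Ech1 2.43 and 0.869, Etfb 2.15 and 0.863, and Decr1 2.12 and 0.838. The contrast was narrower for Cpt1b, at 1.66 and 0.916, for Acsl1, at 1.45 and 0.939, and for Etfa, at 1.31 and 0.898. Ppargc1a was turned the other way, at 0.415 in the shallow and 1.05 in the deep cluster. The 12 muscle-only genes had a median log2 ratio of 1.01 in the shallow and -0.06 in the deep cluster in the same comparison, and their part in the oxidation genes' ratios was not tested.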

How the results depend on the processing

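Of the summary values recomputed under other settings, 73 stayed within their counting interval, 23 left it and 0 turned with an interval that excluded 0. The summed log2 ratio of Myh6-R404Q over WT was 0.2572 with doublets kept, 0.3928 with cells thinned to 1000 UMIs, 0.2152 with a size factor by median of ratios, 0.2354 in the deep cluster alone and 0.2512 without Fabp3. For Prkag2-p.R299Q over WT it was 0.0321, 0.2316, 0.1034 and 0.0058 under the first 4 of these, and 0.1032 with the cluster makeup set equal. For Prkag2-p.R299Q over Myh6-R404Q it was -0.1612 when thinned, -0.1104 with the size factor, -0.2032 with equal makeup and -0.2067 without Fabp3. The median log2 ratio of Prkag2-p.R299Q over WT was 0.2998 when thinned. In the shallow cluster alone, an alternative added after the data had been seen, the medians were 1.0764 for Myh6-R404Q over WT, 1.1049 for Prkag2-p.R299Q over WT and -0.0523 for Prkag2-p.R299Q over Myh6-R404Q. Thinning weights each cell equally, so the shallow cluster counts for more by construction, and 31 of 60 single-gene ratios moved under it. Thinning also left out 118, 109 and 240 cells of the shallow cluster in Myh6-R404Q, Prkag2-p.R299Q and WT. The cause of the shifts under thinning, and of the other shifts, was not tested. With doublets kept, the Cpt1a share was 24.6%, 27.6% and 21.9% in cardiomyocyte-like cells of Myh6-R404Q, Prkag2-p.R299Q and WT, and 81.6% and 81.2% in mesothelial-like cells of Myh6-R404Q and Prkag2-p.R299Q. No paired analysis was possible because each genotype has 1 library, and for the same reason no replicate could be left out. Animal, preparation, library and genotype cannot be told apart.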
